A study of Mus musculus with 4 samples.

Results

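Kinesins and dyneins, the motor proteins that walk along microtubules, were followed through the transcriptome of mouse germinal vesicle (GV) stage oocytes with and without γ-irradiation. Genes were taken by symbol, namely all listed genes whose mouse symbol starts with Kif or Klc and a digit, or with Dync, Dynl or Dnah. The rule matched 77 symbols of the RefSeq annotation, and 69 of these genes, with 219 transcripts, were listed among the 17374 genes and 45505 transcripts of the table. The other 8 symbols, of which 4 are protein coding (Kif12, Kif19a, Kif2b and Kif7), were not analysed here.

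Most kinesins carry cargo towards the plus ends of microtubules, whereas cytoplasmic dynein moves towards the minus ends. A further class of kinesins takes apart microtubule ends or slides and bundles microtubules, and these build and shape the spindle. Cytoplasmic dynein 1 consists of a heavy chain with the motor domain and of intermediate, light intermediate and light chains that bind cargo and adaptors. Axonemal dynein heavy chains drive the beat of motile cilia and sperm tails. The GV oocyte is arrested before its first meiotic division and stores much of the mRNA that it will use when the spindle forms.

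The control oocytes were GV oocytes without irradiation and the irradiated oocytes were exposed to 5 Gy of γ-rays and collected 24 h later, with 2 libraries in each group. All oocytes came from non-primed females of a C57/Bl6/DBA2J F1 hybrid background on postnatal day 16, were pooled after removal of cumulus cells, and were held in milrinone, which blocks meiotic resumption. The study describes oocytes of this age as mostly of the non-surrounded nucleolus (NSN) configuration and transcriptionally active, and the replicates as independent experiments. The series text describes the control oocytes as directly sequenced, whereas the study gives no separate culture time for them. Whether the controls were cultured as long is thus not clear, and irradiation and the time spent in culture cannot be told apart. The pools give 1 value per gene and library, and fewer oocytes expressing a gene cannot be told apart from less RNA in each oocyte.

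The estimated counts per library summed to between 33349466 and 37232818, of which the kinesin and dynein genes held between 117186 and 143769. All 12 oocyte markers of a list (Zp3, Gdf9, Nobox and others) had at least 1 TPM in every library, with a summed level of 49312 to 57716 TPM. TPM is a count corrected for transcript length, with the same sum over all transcripts in every library. The 9 listed genes of a list of 12 granulosa and cumulus markers summed to between 17.7 and 24.6 TPM, and the 11 listed motile cilium markers of 12 to between 1.12 and 2.13 TPM. Irradiated library 2 stood apart from the other 3. Its TMM factor, which sets the effective size of a library, was 1.19 against 0.923 to 0.975. The SD of the log2 difference over all genes lay between 0.500 and 0.550 in comparisons with this library and between 0.322 and 0.356 among the others.

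The levels of the motor genes spanned several orders of magnitude. A mean of at least 1 TPM was seen for 38 of the 69 genes, at least 10 TPM for 21 and at least 100 TPM for 8, against 54.3%, 25.2% and 6.73% of all listed genes. The 5 genes with the highest levels, all dynein light chains, held 78.6% of the summed TPM of the 69. Together the 69 genes took 0.439%, 0.438%, 0.425% and 0.349% of all TPM in control library 1, control library 2, irradiated library 1 and irradiated library 2. Throughout, 4 values in a row are in this order of libraries. The share in irradiated library 2 lay below the other 3.

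**Figure D1:**
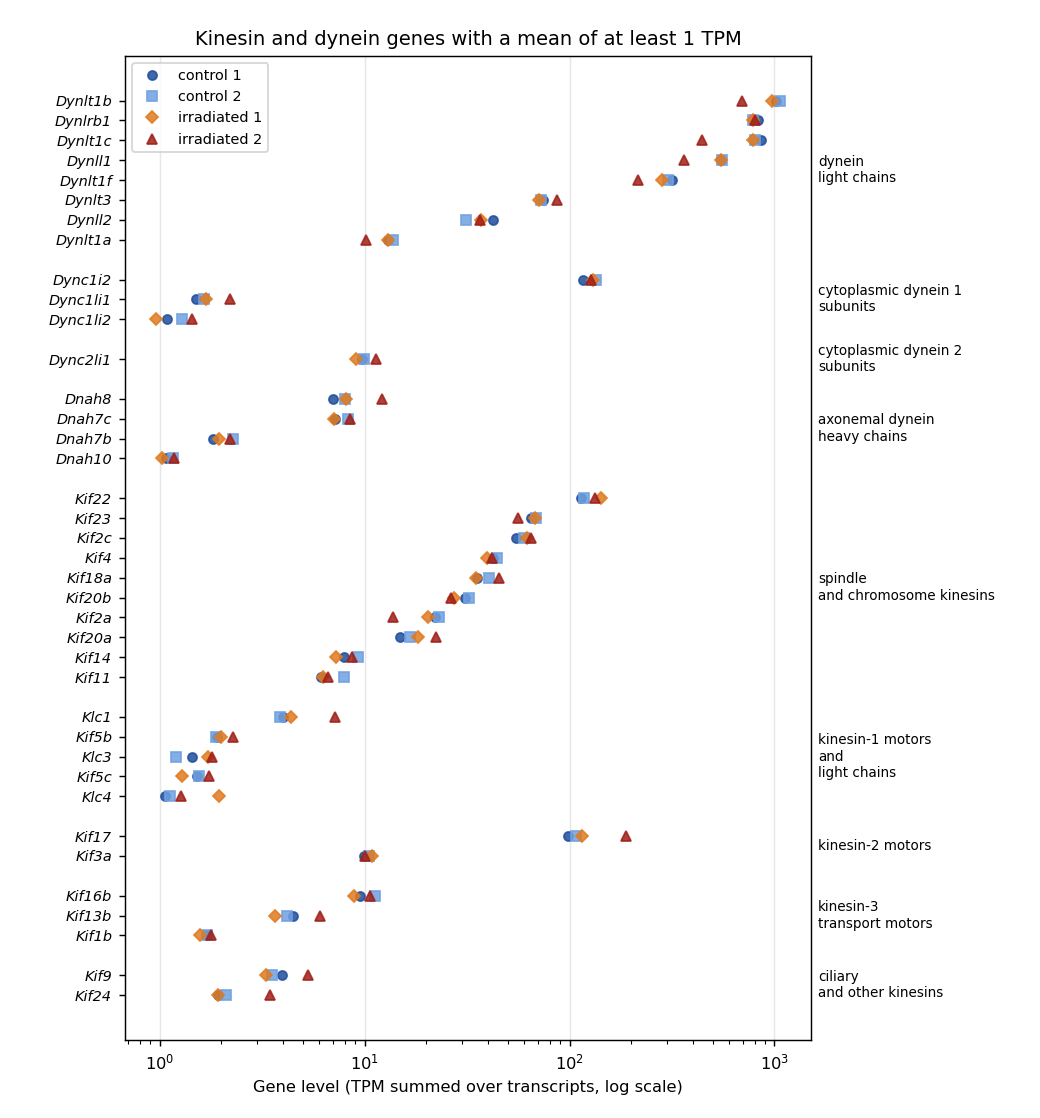
Level of each kinesin and dynein gene with a mean of at least 1 TPM, grouped by role, with 1 symbol per library and TPM on a log scale. Light chains lie at the top of the range, and Kif17 and the light chains Dynlt1c and Dynll1 show irradiated library 2 (red triangle) away from the other libraries.

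Dynein light chains dominated the set. Dynlt1b, a light chain of the Tctex family, had 1020.5, 1064, 978 and 691 TPM. Dynlrb1, a light chain of the roadblock family, had 830.4, 782, 784 and 803 TPM, and its groups overlapped. Dynlt1c had 855, 806, 787 and 445 TPM. Dynll1, the LC8 light chain, which also binds many partners outside dynein, had 551, 557, 547 and 363 TPM. Dynlt1f had 316, 303, 282 and 215 TPM. In 4 of these 5 genes, among them the nearly identical copies Dynlt1b, Dynlt1c and Dynlt1f, irradiated library 2 was far below the other 3 libraries. Those 3 libraries lay close to each other. Dynlt3 had 74.5, 72.3, 71.0 and 86.6 TPM, with both the lowest and the highest value in irradiated libraries, and Dynll2 lay between 31.2 and 42.3 TPM. Dynlrb2, the paralog of Dynlrb1, had at most 4 counts in any library.

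The Dynlt1 genes must be read together, because their coding sequences are almost the same. In GENCODE M21 (GRCm38) the coding sequences of Dynlt1a, Dynlt1c and Dynlt1f, each of 339 bases without the stop codon, are identical. That of Dynlt1b differs from them at 1 base, A21C (the base of Dynlt1b, the position counted from 1 at the start codon, and the base of the copies), and all 4 encode the same 113 residues. The 4 genes lie on chromosome 17 between 6306344 (start of Dynlt1a) and 6655965 (end of Dynlt1f). The first 60 coding bases are shown 5′ to 3′ for Dynlt1b and for Dynlt1c, where the capital marks the single difference. By its coding sequence, a read without this base fits all 4 copies. A read with the capital C still fits Dynlt1a, Dynlt1c and Dynlt1f alike.
Dynlt1b: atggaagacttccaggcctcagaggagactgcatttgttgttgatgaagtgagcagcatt
Dynlt1c: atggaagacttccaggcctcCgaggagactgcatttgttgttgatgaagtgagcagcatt
The split of counts between the copies is therefore uncertain. Dynlt1a had 13.1, 13.7, 13.1 and 10.2 TPM. The sum of counts over the 4 copies does not depend on how they were divided among them and was 35220, 31672, 30914 and 19417. The summed TPM was 2204, 2186, 2060.5 and 1361, and this does depend on the split, because the GENCODE transcripts of the copies differ in length, from 771 to 3321 bases.

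The Dynll pair is more distinct. Dynll1 (chromosome 5, 115297110 to 115300990) and Dynll2 (chromosome 11, 87979525 to 88003817) encode proteins of 89 residues of which 83 are the same, yet 50 of 267 coding bases differ. The first 90 coding bases are shown 5′ to 3′ with the 18 differing bases in capitals, to set their spread beside the single difference among the Dynlt1 copies.
Dynll1: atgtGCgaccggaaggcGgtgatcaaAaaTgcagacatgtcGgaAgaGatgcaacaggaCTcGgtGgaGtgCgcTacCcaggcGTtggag
Dynll2: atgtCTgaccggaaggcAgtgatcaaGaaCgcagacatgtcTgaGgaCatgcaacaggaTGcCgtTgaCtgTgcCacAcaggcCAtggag

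The other chains of cytoplasmic dynein lay below the 5 highest light chains, and by its mean Dync1i2 lay above the remaining 4. Dync1i2, an intermediate chain that ties the heavy chain to the light chains, had 117, 135, 131 and 127 TPM, whereas its paralog Dync1i1 lay between 0.29 and 0.42 TPM. The light intermediate chains Dync1li1 and Dync1li2 lay between 1.51 and 2.21 TPM and between 0.96 and 1.44 TPM. Dync1h1, the heavy chain with the motor domain (chromosome 12, 110601395 to 110666944), had 0.26, 0.25, 0.35 and 0.44 TPM, from 100, 87, 126 and 148 counts. The TPM of Dync1i2 was thus 289 to 540 times that of Dync1h1 per library. This ratio between genes rests on the correction for length and on the few counts of Dync1h1, and coverage along the transcripts was not tested. Of cytoplasmic dynein 2, the motor of retrograde transport in cilia, the symbols cover 2 chains, with 9.1 to 11.4 TPM for Dync2li1 and 0.61 to 0.89 TPM for the heavy chain Dync2h1.

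Axonemal dynein heavy chains were present at low levels beside motile cilium markers that summed to at most 2.13 TPM. Of 15 genes, 4 had a mean of at least 1 TPM. Dnah8, a heavy chain of the sperm tail, had 6.99, 8.05, 8.11 and 12.1 TPM, and Dnah7c had 7.19, 8.27, 7.11 and 8.47 TPM. Dnah7b lay between 1.82 and 2.28 TPM and Dnah10 between 1.03 and 1.18 TPM. Dnah7a, Dnah7b and Dnah7c are related copies on chromosome 1, so that the split of their counts is uncertain. Dnah1 and Dnah3 had at most 2 counts in any library.

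Among kinesins, those of the spindle and the chromosomes had the highest levels together with Kif17. The 12 genes of this class summed to 395, 421, 428 and 421 TPM. Kif22, a chromokinesin that binds chromosome arms, had 114, 117, 143 and 133 TPM. Kif23, a subunit of the centralspindlin complex of cytokinesis, had 64.7, 68.4, 68.0 and 56.3 TPM. Kif2c, which takes apart microtubule ends at centromeres, had 54.9, 59.97, 61.9 and 64.8 TPM. The chromokinesin Kif4 lay between 39.6 and 44.4 TPM, Kif18a between 34.9 and 45.3 TPM and Kif20b between 26.4 and 32.2 TPM. Kif11, which pushes spindle poles apart, lay between 6.16 and 7.97 TPM, and Kif15 and Kif18b had means below 1 TPM.

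Kif17, a homodimeric kinesin-2 of dendritic and ciliary transport (chromosome 4, 138262251 to 138301973), had 98.4, 108, 114 and 189 TPM, so that irradiated library 2 was the highest of the 4. The heterotrimeric kinesin-2 motors were lower, with 9.92 to 10.8 TPM for Kif3a, 0.83 to 0.99 TPM for Kif3b and 0.04 to 0.11 TPM for Kif3c. The conventional transport motors of kinesin-1 were low as well. Kif5b lay between 1.89 and 2.27 TPM and Kif5c between 1.29 and 1.75 TPM, and the neuronal Kif5a had at most 3 counts in any library. The kinesin light chain Klc1 had 4.0, 3.88, 4.39 and 7.17 TPM, and Klc3 lay between 1.20 and 1.80 TPM. Of the kinesin-3 motors, the endosomal Kif16b had 9.50, 11.2, 8.92 and 10.6 TPM, Kif13b had 4.46, 4.16, 3.66 and 6.04 TPM, and Kif1b had 1.69, 1.71, 1.57 and 1.79 TPM. Kif9, Kif24 and Kif27 led the remaining class, at 3.29 to 5.30, 1.92 to 3.44 and 0.34 to 0.45 TPM.

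To ask whether irradiation changed these genes, the counts of each gene were summed over its transcripts and compared between conditions. Of the 69 genes, 61 had enough counts for the test, and 0 passed the limits of the study. The study set these limits for transcripts, at 0.05 for the adjusted p and 2 for the size of the log2 fold change. Here they were applied to gene totals in the quasi-likelihood (QL) test of edgeR, adjusted by Benjamini-Hochberg over all 12569 genes tested. Of all genes tested, 0.00796% passed. At an unadjusted p under 0.05 there were 2 of the 61, against 5.92% of all genes tested, and DESeq2 and the exact test of edgeR also called 0. The 8 genes that were not tested, Dnah1, Dnah3, Dynlrb2, Kif1a, Kif1c, Kif26a, Kif5a and Kif6, had at most 16 counts in any library. The smallest adjusted p among the 61 was 0.708, so no difference in a motor gene total passed the test against the spread between libraries.

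**Figure D2:**
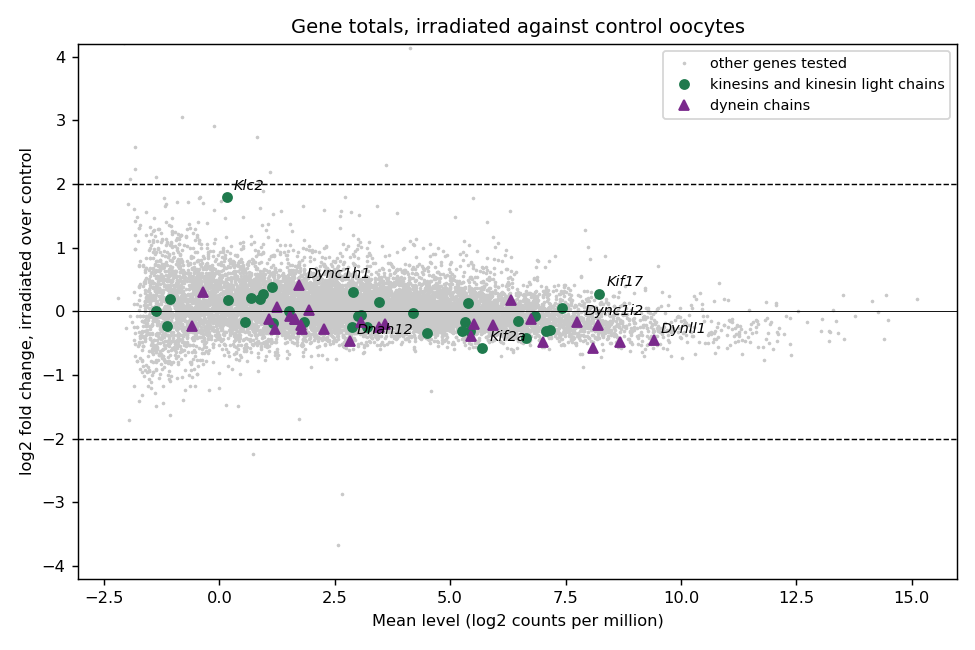
Log2 fold change of gene totals, irradiated over control, against the mean level in log2 CPM, the count scaled to an equal library size, for all genes tested (grey), kinesin genes (green circles) and dynein genes (purple triangles), with dashed lines at the fold limit. No motor gene lies outside the lines, Klc2 comes nearest at 1.79, and 5 other genes lie beyond the plotted range.

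The 2 totals with an unadjusted p under 0.05 were Klc2 and Dnah12. Klc2, a kinesin light chain (chromosome 19, 5107746 to 5118298), had 16, 15, 25 and 99 counts. After scaling this gave 16.3 ± 0.0996 normalized counts in control and 55.7 ± 41.3 in irradiated oocytes (SD, n = 2 each), a log2 fold change of 1.79 (SE 0.572, adjusted p = 0.708 in edgeR's QL test). Both irradiated libraries lay above both controls, but most of the difference came from irradiated library 2, and without this library the log2 fold change was 0.70. Dnah12, an axonemal heavy chain, had 286, 287, 233 and 183 normalized counts, so that both irradiated libraries lay below both controls. Its log2 fold change was -0.46 (SE 0.180, adjusted p = 0.708 in the QL test) and ranged from -0.65 to -0.30 with 1 library left out.

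After Klc2, the 4 totals on the higher side with the smallest unadjusted p belonged to Dync1h1, Klc1, Kif17 and Dnah8. Dync1h1 had 102, 93.9, 133 and 127 normalized counts, without overlap between groups, and a log2 fold change of 0.41 (SE 0.192, adjusted p = 0.708 in edgeR's QL test). This value moved little with any library left out, from 0.35 to 0.47. Klc1 had 244, 223, 257 and 316 normalized counts, a log2 fold change of 0.30, which was 0.14 without irradiated library 2. Kif17 had 9425, 9651, 10329 and 12844 normalized counts, a log2 fold change of 0.28, which fell to 0.12 without this library. Dnah8 had 2508, 2709, 2769 and 3133 normalized counts, a log2 fold change of 0.18, or 0.09 without the same library and 0.12 without control library 1. In all 4 genes both irradiated libraries lay above both controls, as in 22.1% of all genes tested. The choice of genes by a small p favours such an order.

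On the lower side the totals after Dnah12 were those of Kif20b, Kif16b, Kif14 and Kif11. Kif20b, a kinesin of late mitosis, had 4038, 3968, 3439 and 2558 normalized counts, a log2 fold change of -0.42 (SE 0.178, adjusted p = 0.708 in edgeR's QL test), and leaving out irradiated library 2 gave -0.22 and irradiated library 1 -0.66. Kif16b had 1403, 1553, 1256 and 1124 normalized counts, a log2 fold change of -0.31. Kif14, which acts in cytokinesis, had 1594, 1744, 1420.0 and 1277 normalized counts, also a log2 fold change of -0.31. Kif11 had 803, 973, 778 and 619 normalized counts, a log2 fold change of -0.35, which was -0.19 without irradiated library 2, -0.21 without control library 2 and -0.53 without irradiated library 1. The normalized counts of these 4 genes, also chosen by p, did not overlap between groups either, whereas the TPM of Kif16b, Kif14 and Kif11 did. Of all genes tested, 19.9% had both irradiated libraries below both controls. Kif16b and Kif14 kept a log2 fold change of -0.23 or below whichever library was left out.

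The light chains had the lowest median log2 fold change of the 9 roles, -0.42, but it rested on irradiated library 2. Without this library the median was -0.06, above those of cytoplasmic dynein 2 (-0.21), the spindle and chromosome kinesins (-0.15), the axonemal heavy chains (-0.13) and the kinesin-3 motors (-0.13). All 8 tested genes had a log2 fold change below 0, with a range of -0.57 to -0.13, against 6110 of all 12569 genes tested. These 8 include the 4 Dynlt1 copies, whose split of counts is uncertain, so they are not 8 separate observations. Dynlt3 turned to 0.03 with libraries scaled by their totals alone, and Dynlt3 and Dynll2 to 0.10 and 0.02 on log2(TPM + 0.1). These values lay below the median over all genes tested, which was 0.17 with library totals and 0.21 on log2(TPM + 0.1). Of the 8 genes 0 were called, with 0 at an unadjusted p under 0.05 (smallest adjusted p = 0.708 in edgeR's QL test). For the sum of the 4 Dynlt1 copies the normalized counts were 35946, 34182, 32734 and 16648, a log2 fold change of -0.51 (SE 0.334, adjusted p = 0.714 in edgeR's QL test). Without irradiated library 2 it was -0.10, and without irradiated library 1 it was -1.09. Dynll1 had a similar order, with 28215, 26891, 26830.2 and 13476 normalized counts and a log2 fold change of -0.45 (SE 0.332, adjusted p = 0.725 in the same test), and leaving out irradiated library 2 gave -0.04 and irradiated library 1 -1.04. Irradiated library 1 thus lay next to the controls and irradiated library 2 at a much lower level for both families. The summed oocyte markers were also lowest in irradiated library 2, at 57213, 57716, 57554 and 49312 TPM, but these markers went both ways. Zp1, Zp3 and Nobox were highest in this library, with 398, 439.7, 468 and 1215 TPM for Nobox, whereas Zp2, Ooep and Oosp1 were among those lowest there, with 3994, 3978, 3889 and 1595 TPM for Ooep. The part of this library in the light chain values was not tested beyond leaving it out.

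**Figure D3:**
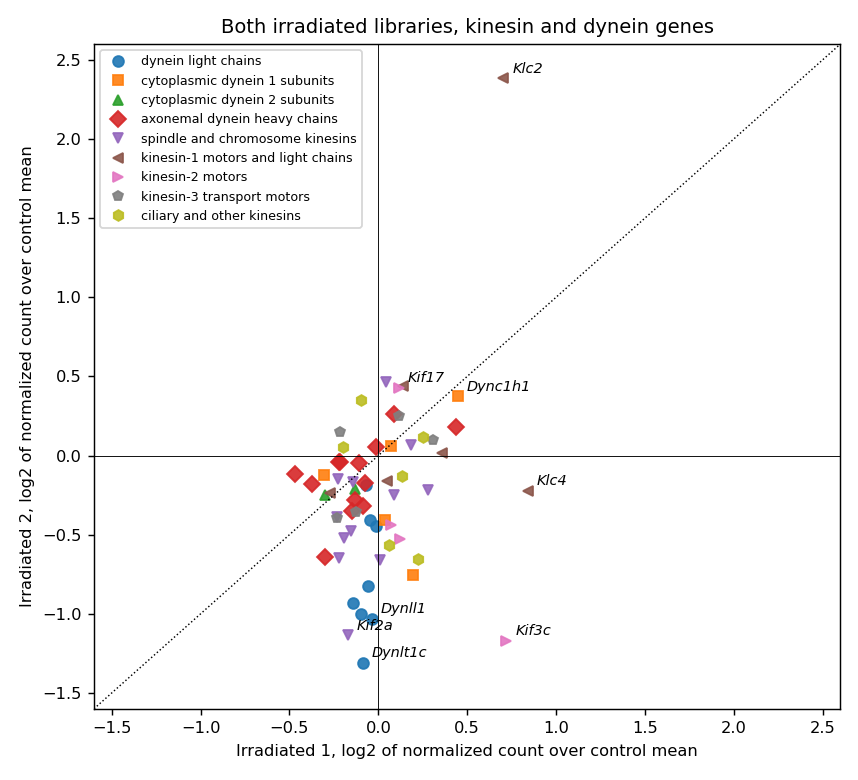
Log2 ratio of the normalized count in irradiated library 1 (x axis) and in irradiated library 2 (y axis) to the mean of the control libraries, for the 61 motor genes tested, with the dotted line where both libraries are equal. The light chains (blue circles) lie near 0 on the x axis and below 0 on the y axis, with Dynlt1c at the lower end, and Klc2 lies highest.

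By role, the spindle and chromosome kinesins had a median log2 fold change of -0.24 over 12 genes, with 3 above and 9 below 0. Kif2a, a microtubule depolymerase, had the lowest, with 2195, 2138, 1924 and 986 normalized counts and a log2 fold change of -0.58 (SE 0.287, adjusted p = 0.708 in edgeR's QL test), which was -0.17 without irradiated library 2. The 13 tested axonemal heavy chains had a median of -0.13, the 5 cytoplasmic dynein 1 genes -0.17 and the 2 cytoplasmic dynein 2 genes -0.22. The kinesin-2 and kinesin-3 motors had medians of -0.08 and -0.02 over 4 and 5 genes, and the 6 other kinesins -0.03. With TMM scaling and all libraries, the 6 kinesin-1 motors and light chains alone had a median above 0, of 0.24, and it was -0.09 without irradiated library 1. Those of the light chains, cytoplasmic dynein 2 and the spindle and chromosome kinesins stayed below 0. This held with library totals alone and with any 1 library left out. The signs of the remaining medians were not stable. With library totals alone those of the axonemal heavy chains (0.03), kinesin-2 (0.05), kinesin-3 (0.16) and the 6 other kinesins (0.13) were above 0. The median over all genes tested was then 0.17. Without irradiated library 2 the medians of cytoplasmic dynein 1 (0.07), kinesin-2 (0.12) and the 6 other kinesins (0.10) were above 0. In no role was a gene called.

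Over all 61 genes the median log2 fold change was -0.16, against 0.01 over all genes tested, with 19 above and 42 below 0. In 26 of the 61 genes both irradiated libraries lay below both controls and in 8 above, against 19.9% and 22.1% of all genes tested. These counts depended on the scaling. When libraries were scaled by their totals alone, 12 genes lay below and 14 above, against 9.33% and 26.9% of all genes, the median of the 61 was -0.02 and that of all genes 0.17. The median of the motor genes minus that of all genes was -0.17 with TMM factors, -0.20 with library totals alone, and -0.06 with TMM factors but without irradiated library 2. Relative to the controls, the median over the 61 genes was -0.06 in irradiated library 1 and -0.22 in irradiated library 2.

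Other genes of the pathways were taken from 3 lists. Of 22 dynactin subunits and dynein adaptors, 20 were tested, 0 were called and 1 had an unadjusted p under 0.05, with a median log2 fold change of 0.12. This gene was Actr1a, the actin-related backbone of dynactin, with 847, 794, 948 and 1209.8 normalized counts and a log2 fold change of 0.40 (adjusted p = 0.708). Of 15 motor subunits with other symbols, such as Kifc1, Cenpe and the axonemal chains, 9 were tested, 0 were called and 1 had an unadjusted p under 0.05, with a median of -0.14. Dnal4, an axonemal light chain, was this gene and had 938, 999, 1221 and 1545 normalized counts and a log2 fold change of 0.51 (adjusted p = 0.708). All 28 spindle microtubule factors were tested, 0 were called and 3 had an unadjusted p under 0.05, with a median of -0.03. Of these 3, Ckap5, a microtubule polymerase, had a log2 fold change of -0.43, Tubg1, the γ-tubulin of microtubule nucleation, 0.40 and Haus7, a subunit of augmin, 0.45, all with an adjusted p of 0.708 (edgeR's QL test).

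Transcripts of a gene were then compared one by one. Of the 219 transcripts, 88 are known ones (NM_ in RefSeq) and 131 are predicted (XM_). A single transcript was listed for 24 genes and several for 45, with 30 for Kif21a alone. Of the 130 transcripts tested 0 passed both limits (edgeR's QL test, Benjamini-Hochberg adjustment over 26645 transcripts, of which 0% passed), and 17 had an unadjusted p under 0.05 against 4.9% of all transcripts tested. DESeq2 called 4 of the 141 transcripts to which it gave an adjusted p as higher and 1 as lower in irradiated oocytes, against 0.459% and 0.403% of all transcripts. The exact test of edgeR also called 4 as higher and 1 as lower, against 0.646% and 0.477%. These calls were the same 5 transcripts, of Kif13b, Kif16b, Kif1b and Dnah12, and in each of them both libraries of one condition were at 0. Which of several transcripts a read came from is an estimate, and its error adds to the counting error of each transcript.

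**Figure D4:**
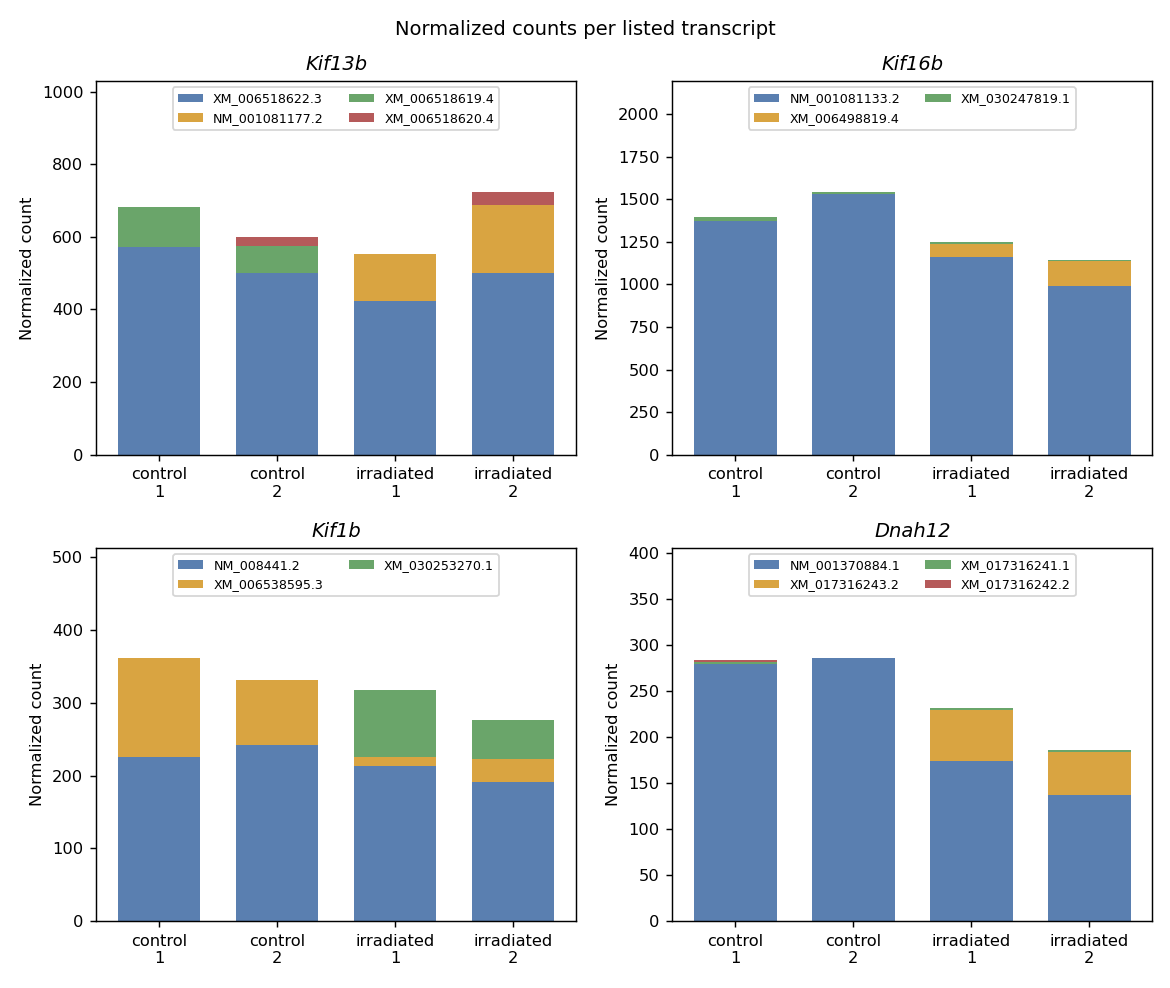
Normalized counts per library of each listed transcript of Kif13b, Kif16b, Kif1b and Dnah12, stacked to the gene total, with axes from 0. In each gene a transcript appears in both irradiated libraries that is at 0 in both controls, beside a main transcript that is present in all 4.

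Kif13b (chromosome 14, 64652492 to 64809618), a kinesin-3 that moves vesicles, had 1 transcript in the irradiated libraries only and another in the controls only. NM_001081177.2 had 0, 0, 121 and 216 counts, which was 23.1% (95% Wilson interval 19.7 to 26.9) and 25.9% (23.1 to 29.0) of the counts of the gene in irradiated libraries 1 and 2. Its mean normalized count in irradiated oocytes, 158 ± 42.8 (SD, n = 2), was at least 50.4-fold that of a floor of 3 counts per control library. XM_006518619.4 had 108, 66.7, 0 and 0 counts, or 16.1% and 12.1% of the gene in the controls, at least 31.4-fold higher than the floor of the irradiated libraries. DESeq2 gave them adjusted p-values of 1.06e-05 and 0.000411, and edgeR's QL test gave 0.777 to both. The main transcript XM_006518622.3 had 564, 467, 402 and 574 counts, and the gene total a log2 fold change of -0.02 (SE 0.168, adjusted p = 0.971 in edgeR's QL test). For the shares of its transcripts within the gene, called isoform usage here, Kif13b had an adjusted p of 0.210 (edgeR's diffSpliceDGE with Simes' method).

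Kif16b (chromosome 2, 142618340 to 142901609), which moves early endosomes, was the single motor gene past the threshold of the test of isoform usage. Of the 35 motor genes tested, Kif16b had an adjusted p of 0.0431, against 0.253% of all 6323 genes called (edgeR's diffSpliceDGE with Simes' method). XM_006498819.4 had 0, 0, 71.5 and 165 counts, a share of 6.07% (95% Wilson interval 4.85 to 7.58) and 12.6% (10.9 to 14.5) in the irradiated libraries, and its mean there was at least 35.1-fold that of the floor of the control libraries. In edgeR's QL test this transcript had an adjusted p of 0.777. The known transcript NM_001081133.2 had 1357, 1426, 1100.3 and 1140 counts, or 98.7%, 99.1%, 92.8% and 86.9% of the gene. Both shares were separated between the conditions. With any 1 library left out the call was lost, with adjusted p-values of 0.156 without irradiated library 1, 0.378 without irradiated library 2, and 0.421 and 0.476 without control libraries 1 and 2.

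Kif1b (chromosome 4, 149176319 to 149307773), a kinesin-3 that carries mitochondria and synaptic vesicle precursors, differed between conditions in the counts of both of its predicted transcripts. XM_030253270.1 had 0, 0, 86.5 and 61.1 counts, and XM_006538595.3 had 134, 83.0, 12.01 and 35.9. The share of the former was 28.9% (95% Wilson interval 24.1 to 34.3) and 19.2% (15.3 to 23.9) in the irradiated libraries, and its mean there was at least 23.1-fold that of the control floor. The known transcript NM_008441.2 had 222, 225, 202 and 220.0 counts, which overlapped between conditions. DESeq2 gave XM_030253270.1 an adjusted p of 0.00280, whereas edgeR's QL test gave 0.777. Isoform usage of Kif1b had an adjusted p of 0.0643 (edgeR's diffSpliceDGE with Simes' method). It was 0.0372 with an F test over the transcripts of a gene, 0.496 with limma's diffSplice and 0.233 with Simes' method and no filter on low counts.

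In Dnah12 (chromosome 14, 26691554 to 26892719) the known transcript NM_001370884.1 had 276, 266, 165 and 158 counts. The predicted transcript XM_017316243.2 had 0, 0, 52.5 and 52.5 counts, a share of 24.1% (95% Wilson interval 18.9 to 30.2) and 24.8% (19.5 to 31.0), and its mean was at least 16.3-fold that of the control floor. DESeq2 gave the predicted transcript an adjusted p of 0.0176, whereas edgeR's QL test gave 0.777. The known transcript had a log2 fold change of -0.86 (adjusted p = 0.777 in edgeR's QL test). Isoform usage had an adjusted p of 0.124 with Simes' method, 0.467 with limma's diffSplice and 0.0450 with the F test. The F test called 3 motor genes, Kif16b, Kif1b and Dnah12, against 0.917% of all genes. Intervals and floors treat each estimated count as an independent read. They do not allow for reads copied by PCR, for the assignment of reads to transcripts or for the spread between libraries. They therefore do not bound the difference between conditions.

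In total, 8 transcripts had more than 3 counts in both irradiated libraries and at most 3 in both controls, which is 3.65% of the 219, against 2.21% of all 45505 transcripts. Beside the 4 described, these were NM_001081959.1 of Klc1, with 10.4 and 22.2 counts in the irradiated libraries, and 3 transcripts of Kif21a, a kinesin that restrains microtubule growth. XM_017316448.2 of Kif21a had 12.4 and 13.7 counts, XM_017316464.2 had 11.6 and 11.6, and XM_017316446.2 had 6.95 and 7.85 beside 2.07 counts in control library 2. A further 8 transcripts, again 3.65%, were present in the controls only, against 1.68% of all transcripts. Beside XM_006518619.4 of Kif13b, 3 of these belonged to Kif21a, namely XM_017316465.2 with 20.7 and 7.13 control counts, XM_030248345.1 with 10.1 and 3.23, and XM_017316479.2 with 5.79 and 4.76.

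The other 4 transcripts present in the controls only were single transcripts of low count. XM_017315621.2 of Kif27 had 13.7 and 10.7 control counts and XM_006525044.4 of Klc4 had 7.05 and 6.92, both with 0 in the irradiated libraries. XM_006496865.3 of Kif26b had 14 and 8.54 control counts and 2.09 and 0 in the irradiated libraries, and XM_006495916.4 of Dnah7b had 6.08 and 7.92 against 2.89 and 2.92. Kif21a thus held 6 of these transcripts, while its gene total was 97, 89, 101 and 104 counts over 30 listed transcripts, a log2 fold change of 0.00 (SE 0.208, adjusted p = 0.996 in edgeR's QL test). None of the 11 transcripts beyond the 5 named above was called by any of the tools that tested it.

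Klc1 had the smallest unadjusted p among motor transcripts counted in all 4 libraries. NM_001025358.2 had 45.0, 45.0, 106 and 174 counts, or 18.8%, 21.8%, 43.6% and 47.0% of the gene, a log2 fold change of 1.49 (SE 0.324, adjusted p = 0.777 in edgeR's QL test). NM_001361612.1 of the same gene had 37.6, 52.3, 3.07 and 0 counts. Both transcripts were separated between conditions, while isoform usage of Klc1 had an adjusted p of 1.00 (edgeR's diffSpliceDGE with Simes' method).

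**Figure D5:**
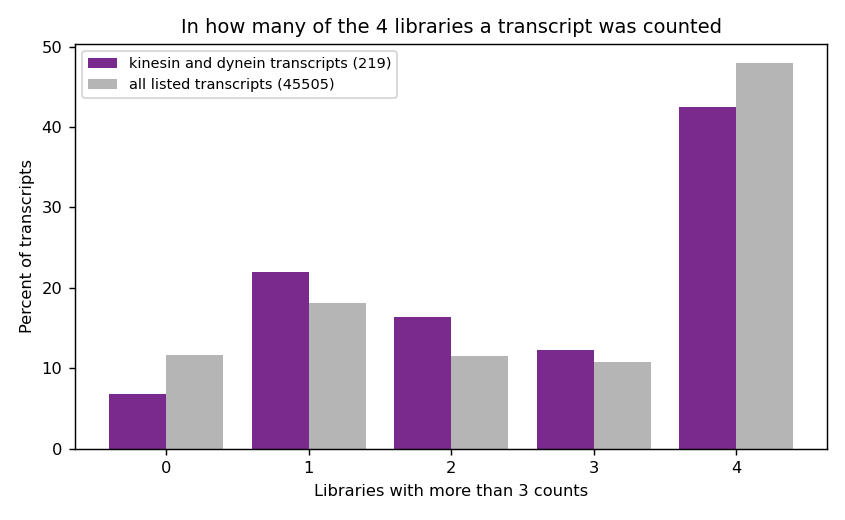
Percent of transcripts with more than 3 counts in 0, 1, 2, 3 or 4 of the libraries, for the 219 motor transcripts (purple) and all 45505 transcripts (grey). Of the motor transcripts 42.5% were counted in all 4 libraries and 21.9% in 1 library only, against 47.9% and 18.1% of all transcripts.

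How often a motor transcript was present in only some libraries sets the scale for these patterns. More than 3 counts were present in all 4 libraries for 93 of the 219 transcripts, in 3 libraries for 27, in 2 for 36, in 1 for 48 and in none for 15. Of the 36 transcripts present in exactly 2 libraries, 16 were those of one condition, and the other 20 were present in 1 library of each condition. Among all listed transcripts, 5262 were present in exactly 2 libraries, with 1007 in both irradiated and 765 in both control libraries.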

How the data were processed

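RNA-seq was measured in 4 libraries of GV oocytes, grouped by the condition in the sample labels. The authors aligned paired-end reads to GRCm38, and the submitters' processing notes name HISAT2, Bowtie2, RSEM and mm10 without versions. The authors deposited estimated counts, which share a read among matching RefSeq transcripts and are not scaled for library size, and TPM values, which are scaled for transcript length and library total. Strandedness is not given in the sources used here. The 10 deposited columns of FPKM values and averages were not used here.

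Symbols and coordinates were taken from RefSeq (GRCm38.p6) by gene ID, with 17323 of 17374 IDs matched, and coding sequences from GENCODE M21. Counts were summed per gene and rounded. The quasi-likelihood (QL) test of edgeR (version 4.0.16, run in R 4.3.3) was applied after TMM scaling and filterByExpr, whose minimum count was 10, with Benjamini-Hochberg adjustment over all features. The study's methods name edgeR and DESeq2 and give the limits on fold change and FDR, but not these settings. Normalized counts are counts divided by the effective library size. Isoform usage was tested with diffSpliceDGE. Alternatives used DESeq2 1.42.0, limma 3.58.1, other scalings and filters, and each library left out. The tests were also run on simulated data. No outcome of those runs is given here, so they do not back the isoform usage call or the transcript calls. Floors are 3 counts per library. Figures used matplotlib 3.10.9 and Python 3.11.15.

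The genes, roles and lists were chosen with earlier results of these data known. Genes named are those past the limits in edgeR or DESeq2 or past the isoform usage threshold, up to 3 per role with the highest TPM, the 5 higher and 5 lower totals with the smallest unadjusted p, transcripts of one condition only, and light chains with proteins over 80% identical. Others were named after their values were seen, such as Kif2a and the transcripts of Klc1 counted in all libraries.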

Additional observations from a re-analysis of the deposited data

How the results depend on the processing

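With 2 libraries per condition, a difference has to be large or steady to pass, and irradiated library 2 decides many values. Motor gene totals called stayed at 0 under other scalings, filters and tools and ranged from 0 to 1 with 1 library left out. The exception was the fit without irradiated library 1, whose spread rests on the controls and which called Klc2 with a log2 fold change of 2.36. There 29 of 62 motor genes had an adjusted p under 0.05, against 34.3% of all genes tested. Transcripts called were 5 with DESeq2 and 5 with edgeR's exact test, against 0 in the other alternatives. Motor genes with changed isoform usage were 3 with the F test, 0 with limma and 0 with no filter, and ranged from 0 to 1 with 1 library left out, where the single call, without irradiated library 1, was Kif23 and not Kif16b. The median log2 fold change of the motor genes was 0.0146 and 0.019 on log2(TPM + 1) and log2(TPM + 0.1) over the 38 genes tested there. On these scales the median over all genes tested was 0.176 and 0.207. The motor median minus that of all genes was -0.16 and -0.19. With 1 library left out, the motor median ranged from -0.23 to -0.06. Transcripts present in the irradiated libraries only were 5 with a TPM limit of 0.1, and ranged from 13 to 26 with 1 library left out. Those present in the controls only were 2 above 10 counts, 5 where absence meant exactly 0 and 3 with the TPM limit, and ranged from 13 to 21 with 1 library left out. The total of Kif13b, with a log2 fold change of -0.02, turned to 0.16 with library totals alone, 0.11 and 0.12 on the 2 TPM scales, and between -0.22 and 0.14 with 1 library left out. The median over all genes tested also rose with library totals alone, from 0.01 to 0.17. The cause was not tested for these changes, except that a left-out library relaxes the rule for presence. The labels do not say that a replicate number marks a shared experiment, and with 2 pairs the correlation of deviations (0.0967 over 12569 genes) cannot show whether it does. With the replicate number as a block, 0 motor gene totals and 0 motor transcripts were called, and motor genes with changed isoform usage went from 1 to 0.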

Other observations

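Some motor transcripts were counted in a single library. Of the 48 transcripts with more than 3 counts in 1 library only, 13 were in control library 1, 7 in control library 2, 10 in irradiated library 1 and 18 in irradiated library 2. The predicted transcript XM_030244619.1 of Kif23 had 648 counts in irradiated library 2 and at most 0.53 elsewhere. In the same library the known Kif23 transcript NM_024245.4 had 4.62 counts, against 1064, 898 and 1069 in control libraries 1 and 2 and irradiated library 1. Kif23 was the motor gene called for isoform usage without irradiated library 1, and its total was 5438, 5093, 5250.0 and 4075 counts.

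XM_030249467.1 of Dnah8 had 206 counts in irradiated library 2 only, and NM_001290806.1 of Kif3a had 93.0 there. NM_029091.3 of Klc4 had 110.0 counts, the whole count of its gene, in irradiated library 1, and 0 in the other 3. Dync2h1 had 89.4 counts of XM_006509826.4 in control library 1 only and 73.4 of XM_017313101.1 in irradiated library 1 only. Both listed transcripts of Klc2 also took turns, with all counts on NM_001369360.1 in control library 2 and on NM_008451.3 in the other libraries. The choice of these transcripts followed their values, and differences between replicates of one condition carry no test of the conditions.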
